A study of Homo sapiens with 4 samples.

Results

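The TRIM genes are a family of protein-coding genes named for the tripartite motif of their products. Members were taken as all protein-coding genes of the RefSeq GRCh38.p14 gene table whose symbol starts with TRIM and a digit, which gave 77 of 20037 genes on the nuclear chromosomes. Binding of IRF3 at them was read from ChIP-seq of MM1.S cells, an established human multiple myeloma line. The cells were untreated, with no interferon, virus or other agent, so no induced state was measured and no second condition exists. The series held 4 libraries, which were IRF3 ChIP replicates 1 and 2 and an input library for each. Whether the replicates were separate cultures is not stated, and differences between them may only be technical. Expression of the TRIM genes was not measured here. At the marker genes used to check the cell label, IRF4, PRDM1, XBP1, SDC1 and TNFRSF17 of plasma cells each had peaks of both replicates that overlapped, and PAX5 and MS4A1 of B cells had none that did.

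TRIM proteins usually combine a RING domain, which gives ubiquitin ligase activity, with B-box zinc fingers, a coiled coil and a variable end that picks the substrate. Some act in antiviral defence, either on viral proteins or on the sensors and adaptors that lead to IRF3. Type I interferon raises a subset of these genes through promoter elements that the interferon regulatory factors and the STAT-containing ISGF3 complex recognise. Others repress chromatin, serve muscle or nerve, or control the cell cycle. The ligase activity in the family's name was not examined in these data, which hold only binding sites. A set of 10 members known as interferon-inducible was compared with the other 67. These 10 are TRIM5, TRIM14, TRIM21, TRIM22, TRIM25, TRIM26, TRIM34, TRIM38, TRIM56 and TRIM69.

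Promoter sequence is given first, because the letters bound by interferon regulatory factors were more frequent in the interferon-inducible members. The RefSeq promoter table (GRCh38.p14, 250 bases before to 50 after each listed start) held 62 of the 77 members, and 9 of the 10 interferon-inducible ones. It was searched on both strands for GAAA, any 2 bases and GAAA, the repeated IRF core of interferon-stimulated response elements. These letters were in 6 of 9 interferon-inducible members, in 4 of 53 other members, and in 659 of 15843 protein-coding genes with a listed start (4.16%). The stretches below are shown because they place that element in each of the 6 genes, and in TRIM44 as the other member whose match lay under a peak of both replicates. The capitals mark the match, or matches that overlap, on either strand. Each stretch is 5′ to 3′ along the gene, and all but the one of TRIM21 end at or before the start site.

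TRIM21, chr11:4393663-4393692, minus strand: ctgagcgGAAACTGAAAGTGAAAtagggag
TRIM5, chr11:5685075-5685134, minus strand: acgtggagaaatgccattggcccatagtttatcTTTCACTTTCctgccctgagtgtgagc
TRIM14, chr9:98119223-98119282, minus strand: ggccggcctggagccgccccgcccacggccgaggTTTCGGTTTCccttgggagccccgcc
TRIM26, chr6:30213563-30213622, minus strand: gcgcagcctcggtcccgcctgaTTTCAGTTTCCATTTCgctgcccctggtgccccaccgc
TRIM34, chr11:5624886-5624945, plus strand: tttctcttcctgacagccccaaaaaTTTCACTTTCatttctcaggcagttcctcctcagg
TRIM69, chr15:44736441-44736500, plus strand: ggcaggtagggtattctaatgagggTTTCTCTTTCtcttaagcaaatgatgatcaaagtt
TRIM44, chr11:35662715-35662774, plus strand: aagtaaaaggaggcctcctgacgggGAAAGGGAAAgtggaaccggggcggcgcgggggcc

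In TRIM21 and TRIM26 a pair of matches overlapped. TRIM5, TRIM34, TRIM14 and TRIM69 had a single match, on the strand opposite to the gene. Positions are given in bases from the start, negative before it. The matches of TRIM21 ran from 17 to 32, and the match began at -27 in TRIM5, -26 in TRIM14, -62 in TRIM69, -90 in TRIM34 and -194 in TRIM26. The other 3 members with a match were TRIM2, TRIM16 and TRIM64C, and none of their matches was covered by a peak in either replicate. TRIM25, TRIM38 and TRIM56 are interferon-inducible and did not hold these letters in the window. The 250 bases before the start of TRIM25 are shown because they lie under the strongest start-site peak of the interferon-inducible members. Here the capitals mark each CG pair instead.

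TRIM25, chr17:56914050-56914299, minus strand: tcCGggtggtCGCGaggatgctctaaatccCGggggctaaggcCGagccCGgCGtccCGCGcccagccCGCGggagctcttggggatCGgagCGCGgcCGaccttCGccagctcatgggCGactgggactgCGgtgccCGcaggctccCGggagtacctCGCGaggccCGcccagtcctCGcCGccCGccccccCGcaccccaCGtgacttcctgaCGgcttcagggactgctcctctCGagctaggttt

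A smaller share of TRIM genes than of genes at large had IRF3 peaks in both replicates. A shared peak was counted when peaks of both replicates overlapped by at least 1 bp and both summits lay within the gene span plus 1 kb. Of the 77 members, 40 had one (51.9%), against 62.0% of all protein-coding genes by the same rule. No peak in either replicate was found at 30 members (39.0%), compared with 31.2% of all genes. A further 4 members (5.19%) had peaks of replicate 1 alone and 3 (3.9%) of replicate 2 alone, against 1.83% and 4.39% of all genes. TRIM34 and TRIM6-TRIM34, among the 4, hold the same peak. The difference from all genes was not tested. Without the 18 members listed for close copies, 38 of 59 members had a shared peak (64.4%). That count was added after the data were seen. As 16 of the 18 had no peak, leaving them out was bound to raise the share. Gene length moved with the difference too. Members had a median length of 17.3 kb and all genes 24.1 kb. Under 10 kb, 4 of 20 members had a shared peak, against 39.6% of all genes of that size. From 10 to 30 kb the values were 22 of 37 members (59.5%) and 60.2% of all genes, and from 30 to 100 kb 10 of 14 members (71.4%) and 74.4%. Most of the short members without a shared peak belong to groups of close copies, which are described below. From 100 kb the values were 4 of 6 members (66.7%) and 82.7% of all genes.

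A larger share of the interferon-inducible members than of the rest of the family had peaks, a difference that was not tested. The list of these members was chosen with earlier results of these data known. A shared peak was found at 8 of the 10 and at 32 of the 67 others (47.8%), against 62.0% of all protein-coding genes. No interferon-inducible member lacked a peak in both replicates, whereas 30 of the 67 others did (44.8%), against 31.2% of all genes. All 18 members listed for close copies are among the 67. Without them, 30 of 49 others had a shared peak (61.2%). Gene length differed too, with a median of 27.3 kb for the interferon-inducible members and 15.5 kb for the others, and its part in the difference was not tested. The 4 classic members TRIM5, TRIM21, TRIM22 and TRIM25 each had a shared peak. Within 1 kb of a listed start, a shared peak was found at 6 of 9 interferon-inducible members and at 17 of 53 others (32.1%), against 54.3% of protein-coding genes with a listed start. The median fold enrichment over input of the best shared peak did not follow this order. It was 5.14 in replicate 1 and 7.07 in replicate 2 at the 8 interferon-inducible members, 5.54 and 9.06 at the 32 others, and 5.65 and 8.02 at all 12424 genes with a shared peak. With a fold enrichment of at least 5 required in both replicates, 4 of 10 interferon-inducible members and 18 of 67 others had a shared peak, against 35.8% of all genes.

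**Figure D1:**
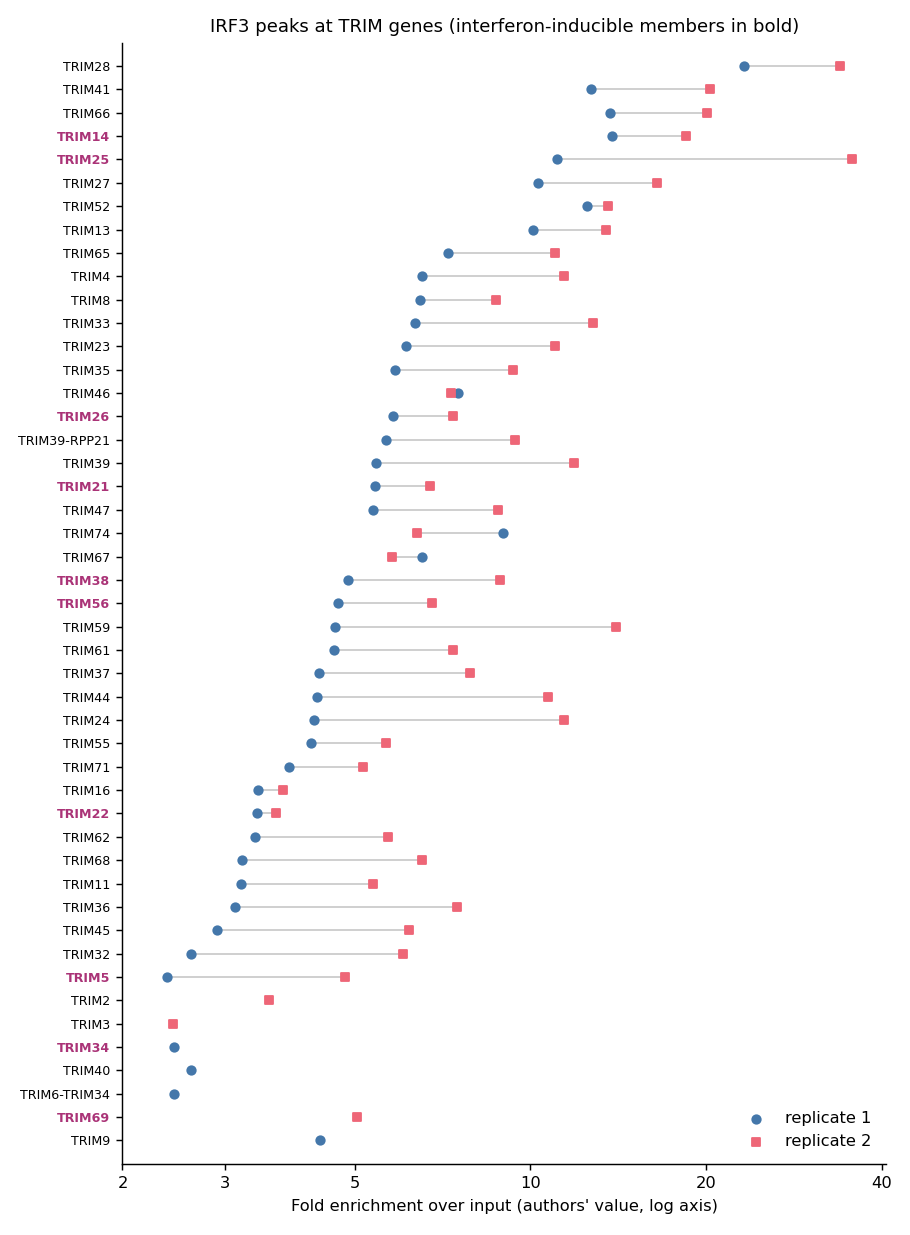
Fold enrichment over input (horizontal log axis) of the best shared peak of each of the 40 TRIM genes with one, and below them the strongest peak of the 7 genes with a peak in a single replicate. Circles are replicate 1, squares replicate 2, and interferon-inducible members are in bold. TRIM28 is at the top, TRIM25 has the highest square at 35.6, and TRIM5 has the lowest shared circle at 2.38.

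TRIM25, the ligase that activates the RNA sensor RIG-I, had the strongest start-site binding of the interferon-inducible members. Fold enrichment was 11.1 in replicate 1 and 35.6 in replicate 2, with 320 and 336 stacked fragments at the summit. These peaks lay above 97.6% and 99.6% of the peaks of their lists. The summits fell at -189 and -169 bp, inside the CG-rich stretch printed above, which has 37 CG pairs in its 300-base window. The peaks ran from 56913576 to 56914628 and from 56912660 to 56915180 on chromosome 17. A weaker shared peak lay 5.77 kb inside the gene, with fold enrichments of 4.26 and 3.56. Replicate 2 had 4 more peaks between it and the start, of 2.04 to 3.51, which replicate 1 lacked.

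TRIM21, the cytosolic antibody receptor, and TRIM26 had start-site peaks of middle strength. TRIM21 had fold enrichments of 5.42 and 6.72, with summits 124 and 89 bp after the start. The peaks covered the overlapping IRF letters of TRIM21 in both replicates, and the summits were 92 and 57 bp from them. TRIM26 had 5.81 and 7.36, with summits 86 and 116 bp after the start, and both peaks also covered its letters, 265 and 295 bp from the summits. A weaker shared peak lay inside TRIM26 (3.15 and 2.75), about 12.5 kb from the start.

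TRIM38, a brake on innate signalling, and TRIM56, a ligase with antiviral activity, were bound at the start without the IRF letters in the window. TRIM38 had fold enrichments of 4.87 and 8.87, with summits 57 and 73 bp after the start. TRIM56 had 4.69 and 6.79, with summits 20 and 45 bp after it. At both genes the replicates placed the summit within 25 bp of each other.

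TRIM5, which restricts retroviruses by binding their capsids, had the weakest shared peak of the family in replicate 1. Its fold enrichment was 2.38 there and 4.81 in replicate 2, at the 6.18th and 58.0th percentile of the peaks of each list. The summits lay 121 and 148 bp after the start. The peaks covered the IRF letters of the promoter, which lay 139 and 166 bp from the summits. This call did not hold at a −log10 q of at least 5, since replicate 1 had 4.98.

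TRIM22, an antiviral neighbour of TRIM5, was bound at both replicates only inside the gene. The shared peak had fold enrichments of 3.40 and 3.66 and lay 2.31 kb from the higher-coordinate end. A peak of replicate 1 alone (3.65) had its summit 82 bp outside the lower-coordinate end. TRIM22 has no entry in the promoter table.

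TRIM14, an adaptor of the mitochondrial antiviral signalling complex, had high values that were not at its own start. The best shared peak had fold enrichments of 13.8 and 18.5, and its replicate 2 summit lay 62.4 kb inside TRIM14 and 123 bp from the start of NANS, a sialic acid synthase gene. At the start of TRIM14 itself there was a peak in replicate 2 alone, with a fold enrichment of 5.41 and a summit 38 bp from the IRF letters. Of the other shared peaks inside the gene, the values were 4.23 and 3.3 at 17.1 kb from the start in replicate 1, and 3.50 and 5.32 at 73.6 kb.

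TRIM34 and TRIM69 lacked a shared peak. TRIM34, a capsid-binding relative of TRIM5, had a single peak in replicate 1 (fold enrichment 2.45), at -261 bp from its second listed start. That same peak lies inside the spans of TRIM5 and of the read-through gene TRIM6-TRIM34, so it is 1 site counted at 3 members. It did not cover the IRF letters, which are at the first listed start of TRIM34. TRIM69 had a single peak in replicate 2 (5.04), with its summit at -309 bp and its span over the IRF letters.

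**Figure D2:**
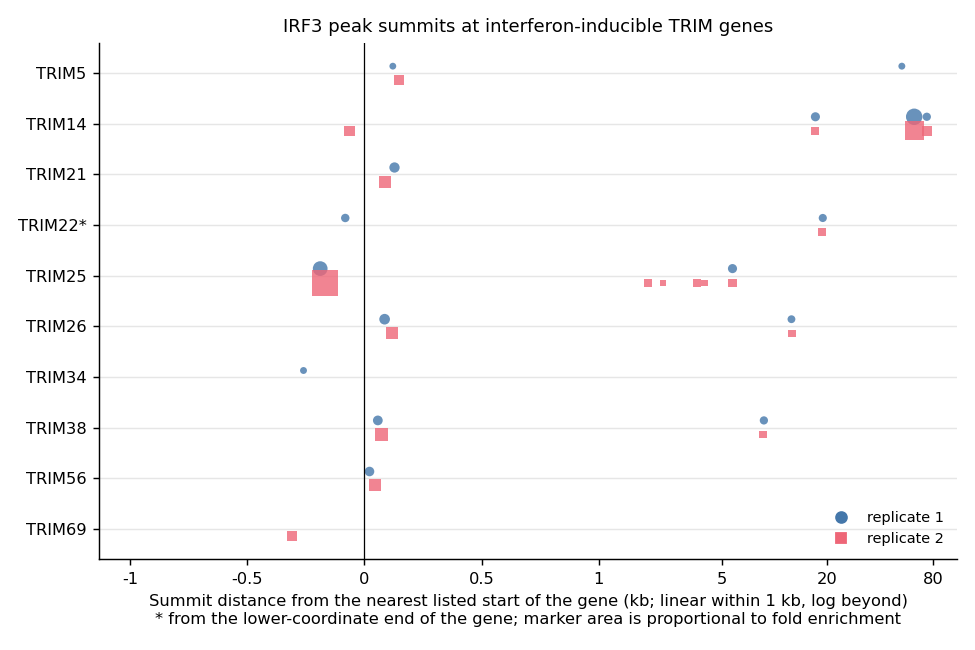
Summit positions of the IRF3 peaks at the 10 interferon-inducible TRIM genes, by distance in kb from the nearest listed start (TRIM22 from its lower-coordinate end), on an axis that is linear within 1 kb and log beyond. Circles are replicate 1 and squares replicate 2, with area proportional to fold enrichment. TRIM5, TRIM21, TRIM25, TRIM26, TRIM38 and TRIM56 have marks of both replicates near 0, while the large marks of TRIM14 sit at 62.4 kb.

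Peaks and IRF letters coincided at some of these genes and not at others. Both replicates covered the match in TRIM5, TRIM21 and TRIM26, replicate 2 alone did in TRIM14 and TRIM69, and neither did in TRIM34. Over all genes with a listed start, 351 of 659 with the letters had a shared peak at a start (53.3%), as did 8257 of 15184 without them (54.4%). The letters for a STAT element (TTC, any 3 bases and GAA) were in none of the 9 interferon-inducible members, in 12 of 53 other members (22.6%) and in 8.98% of all genes. The 12 include TRIM49 with TRIM49C and TRIM64 with TRIM64B, pairs of copies whose promoters are 99.7% identical, so they are not separate sequences.

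A shared peak was found at 4 of 4 chromatin cofactors, against 62.0% of all genes, with no test of the difference. TRIM28 among them had the best rank of the family over both replicates, although TRIM25 was higher in replicate 2. TRIM28, the corepressor that KRAB zinc finger proteins recruit to silence chromatin, had fold enrichments of 23.2 and 33.9, the 110th best of the 12424 genes with a shared peak. Its summits lay 457 and 474 bp from the lower-coordinate end. TRIM66 had 13.7 and 20.1, with summits 58 and 96 bp after a listed start, and the start of the ribosomal gene RPL27A lay 223 bp from the replicate 2 summit. TRIM33, a cofactor of SMAD signalling, had 6.34 and 12.8 at -220 and -202 bp. TRIM24, a nuclear receptor cofactor, had 4.26 and 11.4.

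Other members with high values were outside the interferon-inducible set. TRIM41 had fold enrichments of 12.7 and 20.3, with summits 137 and 122 bp after the start. TRIM27, a MAGE-regulated ligase, had 10.3 and 16.5, and TRIM52 had 12.5 and 13.6. TRIM13, a ligase of the endoplasmic reticulum, had 10.1 and 13.5 at the better of its 2 shared peaks. These 4 lay above 95% of the peaks of each list, at 95.1 to 98.5%. TRIM65, which activates the RNA sensor MDA5, had 7.22 and 11, and TRIM4, a ligase of RIG-I, had 6.53 and 11.4. TRIM8 (6.48 and 8.74), TRIM23 (6.11 and 11), TRIM35 (5.86 and 9.32) and TRIM46 (7.51 and 7.30) followed.

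**Figure D3:**
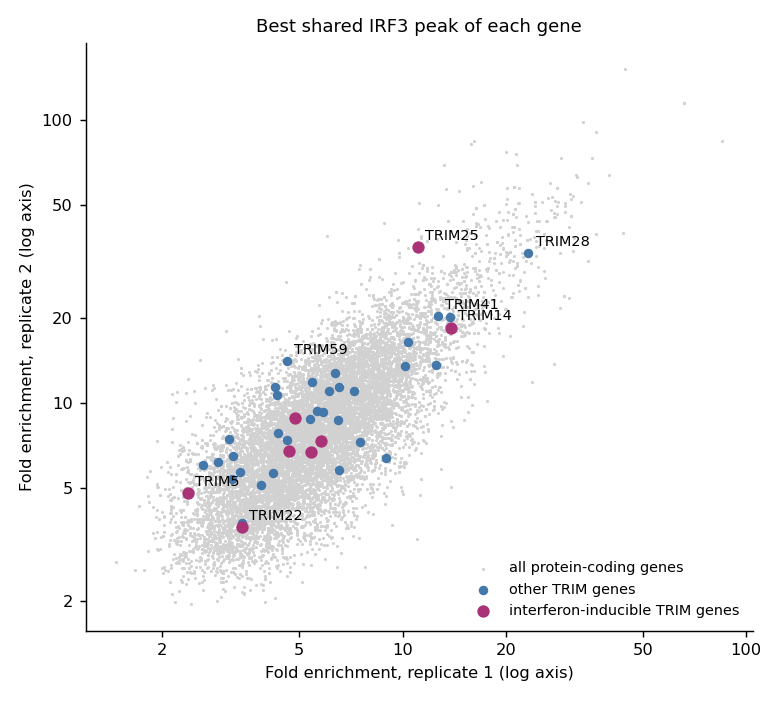
Fold enrichment of the best shared peak in replicate 1 (horizontal) and replicate 2 (vertical), both on log axes, for the 12424 protein-coding genes with one (grey), with TRIM genes in colour. TRIM genes spread through the grey cloud, from TRIM5 (2.38 and 4.81) to TRIM28 (23.2 and 33.9), and TRIM25 (11.1 and 35.6) lies towards its replicate 2 side.

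The best shared peaks of the remaining members ranged from 2.62 at TRIM32 to 8.97 at TRIM74 in replicate 1, and from 3.77 at TRIM16 to 14 at TRIM59 in replicate 2. In full they belonged to TRIM39, TRIM39-RPP21, TRIM47, TRIM74, TRIM67, TRIM59, TRIM61, TRIM37, TRIM44, TRIM55, TRIM71, TRIM16, TRIM62, TRIM68, TRIM11, TRIM36, TRIM45 and TRIM32. TRIM68, a close relative of TRIM21, had 3.21 and 6.52, with summits 146 and 151 bp after the start. TRIM32, whose mutations cause a limb-girdle muscular dystrophy, had 2.62 and 6.05, with both summits at -196 bp. TRIM67 and TRIM71, known for nerve and stem cells, had their best shared peak 49.6 kb and 70.9 kb inside the gene and none at the start. A further shared peak of TRIM71 lay at 64.9 kb. Replicate 2 had the higher value at 37 of the 40 members (92.5%) and at 84.6% of all 12424 genes. The summits of the replicates lay a median of 24.5 bp apart at the members, and within 100 bp at 35 of 40.

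Where they could be placed, most of the best peaks sat near start sites. Of the 40 members with a shared peak, 29 have a listed start, and in 23 of these the best summit of replicate 2 lay within 1 kb of it, at a median of 89 bp after the start. In 8 of the other 11 it lay within 500 bp of a gene end. A start of another gene was nearer in 9 of the 29. Among these, the summit lay 149 bp from RPP21 for TRIM39-RPP21, 142 bp from KRTCAP2 for TRIM46, 151 bp from SHLD3 for TRIM23 and 106 bp from ASTN2 for TRIM32. Which gene of such a pair the binding concerns cannot be told apart from peak positions.

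Promoters with a shared peak were richer in CG pairs, as over all genes. In the 300 bases at the outermost listed start, the 23 members with a shared start-site peak had a median of 24 CG pairs (6 to 44) and a GC content of 64.0%. The 39 members without one had a median of 3 (0 to 31) and 48.0%. Over all genes the medians were 27 and 10 CG pairs. The ranges of the members overlap. Among the interferon-inducible members, TRIM5 and TRIM21 (6 each), TRIM38 (7) and TRIM56 (13) were bound with few CG pairs, while TRIM25 (37) and TRIM26 (29) had many. TRIM14 had 25 and no shared peak at its start.

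**Figure D4:**
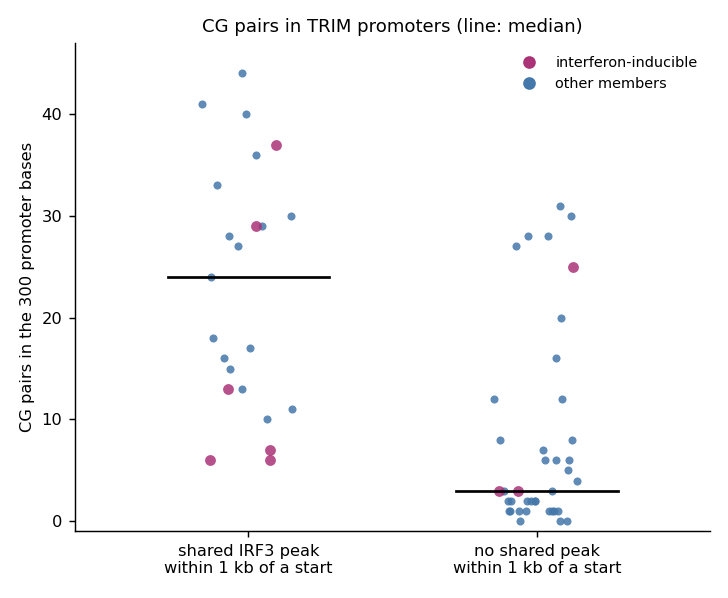
CG pairs in the 300 promoter bases at the outermost listed start (vertical axis) of 23 TRIM genes with a shared IRF3 peak within 1 kb of a start and 39 without. Points are genes, interferon-inducible members are larger and in purple, and lines are medians (24 and 3). Of the interferon-inducible points on the left, 4 lie at 13 or below, under most other members there.

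Of the 30 members without any peak, 16 were on a list of 18 members that belong to recently duplicated groups, as known from the gene family and not measured here. TRIM16 and TRIM74 were the other members of that list, and both had a shared peak. Along chromosome 11 between TRIM51G and TRIM49C, a primate-expanded group of copies had no peak at any of its 12 genes. These are TRIM51G, TRIM49B, TRIM64C, TRIM48, TRIM51, TRIM77, TRIM49, TRIM64B, TRIM49D1, TRIM49D2, TRIM64 and TRIM49C. The nearest peak of replicate 1 lay 28.4 to 345 kb from them, with a median of 218 kb. Their promoters were poor in CG pairs. Promoters of TRIM49 and TRIM49C had the same base at 299 of 300 positions, as had those of TRIM64 and TRIM64B. Apart from these and TRIM73 with TRIM74, no pair of listed copies with a promoter entry reached 60% identity when promoters were compared base by base without gaps. How uniquely reads could be placed in these copies was not tested, so a missing peak there is uncertain. TRIM43, TRIM43B, TRIM50 and TRIM73 are the further listed members with no peak. The promoters of TRIM73 and TRIM74 likewise shared 299 of 300 bases, and the shared peak of TRIM74 lay 12.4 kb from its nearest start, next to LOC124901671. Without the listed members, a count added after the data were seen, 38 of 59 members had a shared peak (64.4%). The share of all protein-coding genes was 62.0%, with close copies of other families kept in. As 16 of the 18 listed members had no peak, leaving them out was bound to raise the share. At start sites, 23 of 46 members had a shared peak without them, against 54.3% of genes with a listed start.

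The list of muscle and cytoskeleton members was close to the family as a whole, with a shared peak at 4 of 8 and no peak at 3 of 8 (37.5%), against 51.9% and 39.0% of the family. Over all protein-coding genes the shares were 62.0% and 31.2%. TRIM63, which drives muscle protein breakdown, TRIM54 and the membrane repair gene TRIM72 had none. TRIM55 (4.20 and 5.66), TRIM36 (3.12 and 7.5), TRIM46 and TRIM67 had a shared peak, and TRIM9 had one in replicate 1 alone. TRIM7, TRIM10, TRIM15, TRIM17, TRIM29, TRIM31, TRIM42, TRIM58, TRIM60, TRIM75 and TRIM6 had none either. The peaks in a single replicate, besides those of TRIM34 and TRIM69, were at TRIM6-TRIM34, TRIM40 (2.62) and the neuronal gene TRIM9 (4.36) in replicate 1, and at TRIM2 (3.57) and TRIM3 (2.44) in replicate 2. Close to the 1 kb limit, TRIM17 fell outside with summits 1.13 and 1.15 kb away, which are the peaks of its neighbour TRIM11. TRIM46 was inside, with summits at -663 and -687 bp.

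Of 4 family members that carry other symbols, 1 had a shared peak, against 62.0% of all protein-coding genes, with no test of the difference. PML, the scaffold of nuclear bodies and an interferon-inducible gene, had fold enrichments of 2.98 and 3.09 at its shared peak. MID1 had a peak of each replicate (5.53 and 5.85) that did not overlap, MID2 had peaks of replicate 2 alone and MEFV had none. Of the 10 genes listed for the RIG-I pathway, in which TRIM25 and TRIM4 act, 10 had a shared peak, against 62.0% of all protein-coding genes, with no test of the difference. The sensor gene RIGI had 4.20 and 2.89, the ligase gene RNF135 7.61 and 7.20, and the antiviral factor ZC3HAV1 8.53 and 13.4. The adaptor gene MAVS had 4.97 and 7.98 and TRAF3 9.33 and 7.14. IFIH1, which encodes MDA5, had 10.7 and 8.34, with the start of GCA 70 bp from the replicate 2 summit.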

How the data were processed

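Peak lists of 2 IRF3 ChIP libraries were analysed, each called by the authors with MACS2 2.1.2 against its own input, at a q-value cutoff of 0.05 with duplicate tags kept, per the file headers. The submitters' processing notes name MACS2 2.1.1, BWA 0.7.15, Picard 2.6.0, SAMtools 1.2 and the build GRCh38. Replicate 1 had 38568845 ChIP tags and 58025919 input tags, and replicate 2 had 46474586 and 60348415. The lists held 41880 and 41666 peaks. The deposited fold enrichment is a ratio of ChIP pileup to local input, the pileup is a signal, and the deposited −log10 p and −log10 q had damaged column names and were told apart by order and values. All are the authors' own values for each peak.

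Peaks were assigned to genes in pandas 2.3.3 and numpy 2.4.6 under Python 3.11.15. The pairing of peaks was tested on simulated data. The best shared peak of a gene had the best worse-of-2 rank of fold enrichment. There is 1 group and no comparison of conditions, so no test was run, and counts stand beside those of all genes. Members and lists were chosen with earlier results of these data known. Described by a rule set with the design were the 10 interferon-inducible members, the 15 best-ranked members, all members without a peak, 7 further members and a list of genes outside the family. Further genes, among them neighbours with a nearer start, were named after their values were seen. Start sites came from the RefSeq promoter table, which held 62 members. It has no entry for TRIM4, TRIM8, TRIM11, TRIM13, TRIM22, TRIM24, TRIM27, TRIM28, TRIM29, TRIM35, TRIM43, TRIM43B, TRIM45, TRIM55 and TRIM60. The search for letters covers that window only.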

Additional observations from a re-analysis of the deposited data

How the results depend on the processing

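The counts depend most on peak strength. With a fold enrichment of at least 5 in both replicates, 22 of 77 members had a shared peak, against 35.8% of all genes. Of the 22, 4 were interferon-inducible and 18 were not. At a start site 12 of 62 members had one, against 31.3% of genes with a listed start. The median of replicate 2 was then 11.2, as this setting keeps only stronger peaks. Without read-through genes and members with a start of another gene within 1 kb, 15 of 50 members had a shared peak at a start site. The main setting gave 23 of 62, so both the count and the share of members fell. The share of all genes was not counted with such genes left out. With the list limited to the 4 members TRIM5, TRIM21, TRIM22 and TRIM25, all 4 had a shared peak. With 1 replicate left out, so that peaks of the other decide, 43 to 44 of 77 members had a peak. These were 9 of the interferon-inducible ones in either case and 34 to 35 of the others. Peaks of replicate 1 were at 57% of members and 64% of all genes, and peaks of replicate 2 at 56% and 67%. At a start site 25 to 27 of 62 members had a peak. The shares there were 40.3% of members and 55.6% of genes with a listed start in replicate 1, and 43.5% and 59.5% in replicate 2. The settings of −log10 q, overlap of peaks and distance kept every count within 1.5 times the value reported, with 33 members at 0 bp added to the span and 45 at 5 kb. The share of all genes moved too, to 50.9% at 0 bp and 65.8% at 5 kb. The 5 gained at 5 kb were TRIM7, TRIM17, TRIM50, TRIM60 and TRIM73. Of the alternatives added after the data were seen, 1 dropped members whose best shared peak was nearer to a start of another gene. It left 31 of 77 members with a shared peak, among them 7 of the 10 interferon-inducible ones. The share of all genes was not counted under it. Searching the outermost start alone found the IRF letters in 6 of 9 interferon-inducible members and 3.18% of all genes. With the last base of the element free, the values were 6 of 9 and 9.22% over any listed start, and 6 of 9 and 7.09% at the outermost start. No paired analysis was possible because only 1 group has peak lists and no test was run. Binding below the depth of these libraries was not detectable, and with 1 untreated condition the response to interferon was not analysed here.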
